A study of Mus musculus with 12 samples.

Results

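The core splicing factor genes are 42 genes for proteins that build or steer the spliceosome, chosen by name, and all 42 were among the 12158 genes of a table of mouse forebrain RNA-seq values. They fall into 9 classes by role: 10 SR proteins, 11 hnRNP proteins, 5 SF3 subunits of the U2 particle, 2 U2AF subunits, 2 Tra2 proteins, 7 proteins of the U4/U6.U5 tri-snRNP, Prpf19, 2 U1 proteins and 2 proteins of the Sm ring. Forebrain was taken from C57BL/6N mice, Chd8+/del5 animals (labelled Het) and wild-type littermates (WT), at embryonic stages e12.5, e14.5 and e17.5, on the day of birth (P0) and from adults, for which the label is P56. Chd8 encodes a chromatin remodelling protein, and Chd8+/del5 mice carry 1 altered copy of it. The 44 libraries of polyadenylated RNA were 8 at e12.5, 9 at e14.5, 10 at e17.5, 11 at P0 and 6 in adults. The labels list 10 RNA samples, 1 of each genotype at each stage, and no column name matches only 1 of them, so the libraries of a stage were analysed jointly whatever their genotype and no comparison of Het with WT was made. Whether each library is a separate animal is not stated for each column.

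Splicing removes introns from a new transcript in steps. The U1 particle marks the start of the intron, U2AF and the U2 particle with its SF3 subunits mark the branch site and the end, and the U4/U6.U5 tri-snRNP then joins before the Prp19 complex helps to make the catalytic form. SR proteins mostly bind exonic enhancers and favour use of the nearby sites, while hnRNP proteins coat the transcript and often work against inclusion. Many SR and hnRNP genes, and Tra2b, also hold highly conserved exons whose inclusion sends their own messenger RNA to decay, so their RNA level is in part set by splicing itself. In the forebrain these proteins are most studied in the change from dividing progenitors to neurons, when splicing patterns switch.

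Levels are log2 RPKM, reads scaled to transcript length and to the size of the library, on a log2 scale, as deposited. A difference is the median of the later stage minus the median of the earlier stage, and a gene is called lower when every library of the later stage lay below every library of the earlier stage. These calls carry no p-value, and each is read against the share of the 12102 genes past a filter on low values that met the same rule; all 42 splicing factor genes passed that filter. Library medians over those genes ran between 3.61 and 3.75 log2 RPKM. Reads per library are not in the table, so precision is read from the spread between libraries: the median range of a splicing factor gene within a stage was 0.24 at e12.5, 0.48 at e14.5, 0.60 at e17.5, 0.46 at P0 and 0.47 in adults, against 0.35, 0.56, 0.56, 0.52 and 0.59 over all genes. Chd8 itself lay between 3.08 and 4.96 log2 RPKM over all libraries. Adult library 1 stands apart and is described with the adult results, which are given with and without it.

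Splicing factor RNA was highest in the youngest forebrain and lowest in the adult. The 42 genes together made up a median of 1.70% of the summed RPKM at e12.5, 1.12% at e14.5, 0.977% at e17.5, 0.902% at P0 and 0.486% in adults. The libraries ran from 1.59% to 1.80% at e12.5, from 1.05% to 1.47% at e14.5, from 0.827% to 1.28% at e17.5, from 0.813% to 0.984% at P0 and from 0.410% to 0.597% in adults, so no adult library reached any P0 library and no P0 library reached any e14.5 library, whereas e17.5 overlapped both e14.5 and P0. The stages of the highest and lowest median were counted for the 42 genes only, so these counts have no background over all genes. By gene, 41 of 42 had their highest stage median at e12.5, the exception being Hnrnpa1 with its highest at P0. In adults 36 of 42 had their lowest stage median; the others were Srsf5 with its lowest at e14.5, Prpf6, Prpf19, Snrpb and Sart1 at e17.5, and Srsf9 at P0. The e12.5 libraries were read as 100 bp paired ends and all others as 50 bp single ends, so the stage and the read type cannot be told apart at e12.5. In bulk tissue, fewer cells of a type and less RNA per cell cannot be told apart either.

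**Figure D1:**
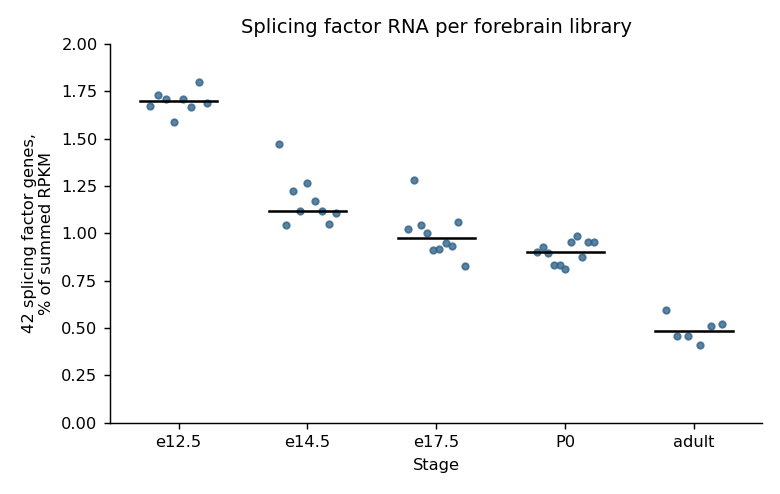
Summed RPKM of the 42 splicing factor genes as a percentage of the summed RPKM of each library, by stage; each point is 1 of 44 libraries and the black line is the stage median. The median is 1.70% at e12.5 and lower at each later stage, with 0.486% in adults, and adult and P0 libraries do not overlap.

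The called intervals were not the same for all genes, and 4 genes show 2 of the patterns. Srsf1 and Srsf10 encode SR proteins and were lower both at P0 than at e14.5 and in adults than at P0, whereas Hnrnpr and Tra2b overlapped between e14.5 and P0 and were lower in adults than at P0. These 4 are shown with the 250 bases before their annotated start, because they hold a spelling of the E2F site, TTTCCCGC, which is bound by the cell-cycle factors of that name. In each line the strand is that of the gene, the sequence runs 5′ to 3′, capitals mark the match on either strand (GCGGGAAA is the same site read on the other), and the sequences are RefSeq's on GRCm38.p6.

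Srsf10, chr4:135855821-135856070, plus strand: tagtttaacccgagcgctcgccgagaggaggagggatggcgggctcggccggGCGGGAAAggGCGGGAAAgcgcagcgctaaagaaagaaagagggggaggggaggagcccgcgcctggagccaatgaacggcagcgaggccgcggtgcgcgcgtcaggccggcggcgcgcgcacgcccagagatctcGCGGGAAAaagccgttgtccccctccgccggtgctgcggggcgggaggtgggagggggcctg
Srsf1, chr11:88047123-88047372, plus strand: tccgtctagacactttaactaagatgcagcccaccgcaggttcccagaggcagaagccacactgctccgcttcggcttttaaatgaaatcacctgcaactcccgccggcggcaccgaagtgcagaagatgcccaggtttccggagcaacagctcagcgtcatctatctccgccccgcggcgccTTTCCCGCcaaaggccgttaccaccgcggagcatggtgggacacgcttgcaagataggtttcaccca
Hnrnpr, chr4:136311348-136311597, plus strand: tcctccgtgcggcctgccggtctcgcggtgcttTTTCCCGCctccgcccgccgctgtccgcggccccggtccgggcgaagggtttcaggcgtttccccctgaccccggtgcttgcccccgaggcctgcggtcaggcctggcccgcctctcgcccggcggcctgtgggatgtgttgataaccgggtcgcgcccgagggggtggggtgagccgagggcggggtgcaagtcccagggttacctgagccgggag
Tra2b, chr16:22266006-22266255, minus strand: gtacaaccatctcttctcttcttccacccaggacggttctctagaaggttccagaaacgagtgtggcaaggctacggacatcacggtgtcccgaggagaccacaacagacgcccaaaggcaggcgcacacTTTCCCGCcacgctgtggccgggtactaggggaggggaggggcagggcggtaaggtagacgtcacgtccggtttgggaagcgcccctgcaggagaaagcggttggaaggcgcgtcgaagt

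Srsf10 holds 3 matches, the farthest 198 and the nearest 62 bases before the start, and the single matches lie 67 bases before the start in Srsf1, 217 in Hnrnpr and 120 in Tra2b. Promoters were in the table for 39 of the 42 genes, all but U2af2, Snrpd1 and Snrpb. The spelling was found in 5 of 39 (12.8%), the fifth being U2af1, against 1.99% of the 9180 table genes with a promoter. It was picked for display out of 16 spellings searched on both strands, after the matches were seen, and matches of the different spellings can overlap. Of the others, the second E2F spelling TTNGCGCC was in 15.4% against 3.58%, the ETS core CCGGAAG in 33.3% against 15.4%, and the NRF1 site in 28.2% against 9.46%. The SP1 core GGGCGG was in 66.7% of both, CCAAT in 46.2% against 40.9% and TATAAA in 12.8% against 7.45%. The windows held a median of 21 CG pairs, against 18 over the table genes. A match describes the letters and is no evidence of binding, and the deposited Chd8 peak list, on another genome build, was not used here.

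Genes lower at birth than at e14.5 were most frequent among the SR proteins. Compared with e14.5, 16 of the 42 splicing factor genes were lower at P0, none was higher and 26 overlapped, against 23.1% of all genes lower and 22.7% higher. Their median difference was -0.27, with 32 of 42 below 0, against -0.04 over all genes, with 6327 of 12102 below 0. Of the 16, 6 were lower by 2-fold or more: Srsf3, Srsf7, Srsf9, Srsf10, Tra2a and Snrpb; over all genes 7.90% were lower by this rule. Under quantile normalization 19 were lower and 1, U2af1, was higher, and all 16 remained lower. The median difference of the 42 genes was then -0.34, against -0.05 over all genes.

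Among the SR proteins, 8 of 10 were lower at P0 than at e14.5, with a class median of -0.78. Srsf3, which also has roles in messenger RNA export, had the largest difference: it ran between 4.85 and 5.43 log2 RPKM with a median of 5.08 in P0 libraries, against 6.13 to 6.77 with a median of 6.32 in e14.5 libraries, a difference of -1.24. Srsf7, its close relative, had 5.51 to 6.02 with a median of 5.72 in P0 libraries, against 6.70 to 7.23 with a median of 6.94 in e14.5 libraries. In each gene every P0 library lay below every e14.5 library, by a gap wider than the range within either stage. Srsf10, an unusual SR protein that becomes a repressor when it loses its phosphates, had 3.21 to 3.68 log2 RPKM with a median of 3.36 in P0 libraries, against 4.20 to 4.59 with a median of 4.51 in e14.5 libraries. Srsf9 had 4.65 to 5.07 with a median of 4.88 in P0 libraries, against 5.75 to 6.22 with a median of 5.98 in e14.5 libraries. The other called SR genes differed less: Srsf2 by -0.84, Srsf4 by -0.72, Srsf1 by -0.69 and Srsf6 by -0.59. Srsf11 differed by -0.26 with overlapping ranges, the smallest difference in the class, and Srsf5 was the only SR gene with a positive difference, 0.47, also with overlapping ranges. RefSeq lists a pseudogene of Srsf3, Srsf3-ps, so the level of Srsf3 is uncertain by however many reads the counting gave to that copy.

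The 11 core hnRNP genes lay near the background over the same interval. The 15 other hnRNP genes, described below, did not, with 8 lower, 1 higher and a median of -0.37. Of 11, 2 were lower at P0 than at e14.5, with a class median of -0.05, against 23.1% lower and a median of -0.04 over all genes; 4 were lower under quantile normalization, with a class median of -0.35. Hnrnpf, which binds G-rich runs, had 1.83 to 2.56 log2 RPKM with a median of 2.33 in P0 libraries, against 2.86 to 3.39 with a median of 3.26 in e14.5 libraries. Hnrnpm had 6.46 to 6.89 with a median of 6.73 in P0 libraries, against 7.18 to 7.64 with a median of 7.39 in e14.5 libraries. In the other 9 hnRNP genes the ranges of the stages overlapped. Hnrnpr had the smallest difference, -0.0051. Hnrnpc differed by -0.69 but its highest P0 library, at 6.77 log2 RPKM, was above its lowest e14.5 library, at 6.71.

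In the other classes, the genes lower at P0 than at e14.5 were Tra2, Sm, SF3 and tri-snRNP genes. Tra2a, an SR-like activator of exon inclusion, had 5.35 to 5.86 log2 RPKM with a median of 5.59 in P0 libraries, against 6.64 to 7.03 with a median of 6.72 in e14.5 libraries. Its paralogue Tra2b differed by 0.23 with overlapping ranges. Snrpb, which encodes the SmB protein of the ring that holds each spliceosomal RNA, had 6.07 to 6.55 with a median of 6.35 in P0 libraries, against 7.10 to 7.79 with a median of 7.37 in e14.5 libraries, while the other Sm gene, Snrpd1, differed by -0.06. Among the SF3 subunits, which hold U2 at the branch site, 2 of 5 were lower, Sf3b3 by -0.61 and Sf3a3 by -0.59, and Sf3b2 differed least, by 0.11. Of the tri-snRNP genes 2 of 7 were lower, Prpf4 by -0.44 and Prpf31 by -0.32, both of them proteins of the U4/U6 part, and Sart1 differed least, by 0.05. Neither U2AF gene was called: U2af1, the small subunit that reads the end of the intron, differed by 0.44, and U2af2, the large subunit, by -0.35. The U1 genes Snrnp70 and Snrpa differed by 0.22 and 0.08 and Prpf19, the ubiquitin ligase of its complex, by -0.23, all with overlapping ranges.

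**Figure D2:**
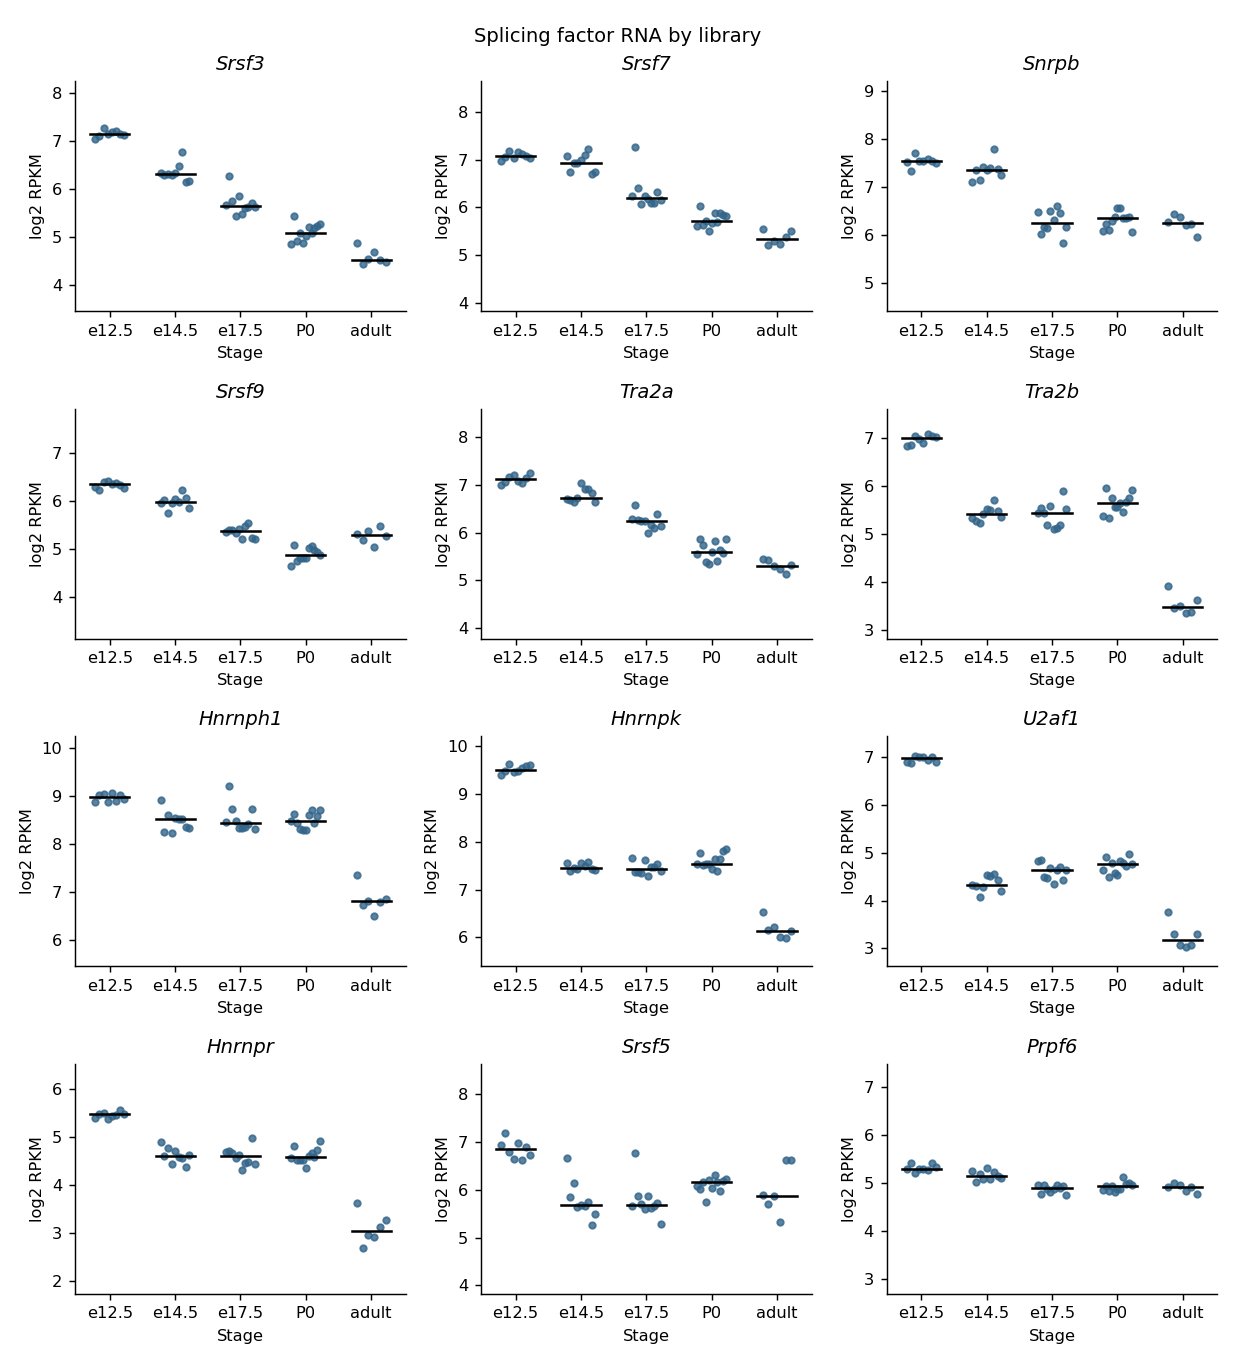
Level of 12 splicing factor genes in each of the 44 libraries by stage, in log2 RPKM; points are libraries, black lines are stage medians, and every panel spans the same number of log2 units. Srsf3, Srsf7 and Tra2a step down through birth, Snrpb steps down between e14.5 and e17.5, Tra2b, Hnrnph1, Hnrnpk, U2af1 and Hnrnpr are lower in adults than at P0, with U2af1, Hnrnpk, Tra2b and Hnrnpr also lower at e14.5 than at e12.5, where the read type changes, and Srsf9 is lowest at P0.

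The e17.5 libraries place these steps within the interval. Compared with e14.5, 9 genes were lower at e17.5 and none was higher, against 12.1% of all genes lower and 13.1% higher. Snrpb had the largest difference, -1.12, followed by Hnrnpf at -0.78 and Srsf9 at -0.61. The other 6 were U2af2, Tra2a, Sf3a3, Prpf4, Srsf4 and Prpf6, with differences between -0.51 and -0.25. Library 2 of e17.5 was the highest of its stage in 19 of the 42 genes, a count that was not made over all genes. Its median deviation from the stage medians was 0.11 log2 RPKM over the 42 genes and -0.0078 over all genes. Without it 14 genes were lower. Over all genes, leaving out 1 library at a time gave 1465 to 1752 lower, against 1464 with every library. Compared with e17.5, 4 genes were lower at P0, Tra2a by -0.65, Srsf3 by -0.56, Srsf9 by -0.49 and Srsf7 by -0.48, and Sf3b2 was higher by 0.18, against 6.28% of all genes lower and 4.89% higher. The median of the 42 genes was -0.31 at e17.5 against e14.5 and 0.01 at P0 against e17.5, and the second changed sign with the scaling and with single libraries. Srsf9 and Tra2a were called lower in each of the 2 steps. Srsf3 and Srsf7 differed by -0.68 and -0.73 in the first step, more than in the second, and missed the call there through e17.5 library 2: it had 6.26 and 7.26 log2 RPKM, while the next e17.5 libraries, at 5.85 and 6.40, lay below the lowest e14.5 libraries, at 6.13 and 6.70. Whether the steps differ was not tested, and they share the e17.5 libraries.

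After birth the hnRNP genes, the largest class, had the highest number of members lower, 8 of 11. By share the U2AF genes were ahead, with 2 of 2. Compared with P0, 23 of the 42 splicing factor genes were lower in adults, none was higher and 19 overlapped, against 25.2% of all genes lower and 29.3% higher. Their median difference was -0.54, with 41 of 42 below 0, against -0.01 over all genes, with 6136 of 12102 below 0. Of the 23, 7 were lower by 2-fold or more: Tra2b, Snrpd1, Hnrnph1, U2af1, Hnrnpr, Hnrnpk and Hnrnpd; over all genes 13.2% were lower by this rule. With libraries centred on their medians, or quantile normalized, 28 were lower in each case and all 23 remained among them. The median difference of the 42 genes was -0.63 when centred and -0.65 when quantile normalized, against -0.10 and -0.09 over all genes.

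Among the hnRNP genes, 8 of 11 were lower in adults than at P0, with a class median of -0.91. Hnrnph1, which binds G-rich runs next to regulated exons, had 6.50 to 7.37 log2 RPKM with a median of 6.81 in adult libraries, against 8.30 to 8.72 with a median of 8.47 in P0 libraries, so that its RPKM was 3.17-fold higher at P0. Hnrnpr, linked to axonal RNA transport in motor neurons, had 2.68 to 3.62 with a median of 3.04 in adult libraries, against 4.36 to 4.91 with a median of 4.59 in P0 libraries. Hnrnpk, which binds C-rich sequence, had 5.99 to 6.53 with a median of 6.14 in adult libraries, against 7.39 to 7.86 with a median of 7.53 in P0 libraries. Every adult library lay below every P0 library in these genes, and at e14.5 and e17.5 their levels had overlapped P0. Hnrnpd, known as the AU-rich element binding protein AUF1, had 4.52 to 5.24 with a median of 4.90 in adult libraries, against 5.74 to 6.19 with a median of 5.97 in P0 libraries. Hnrnpa2b1 differed by -0.91, Hnrnpl by -0.71, Hnrnpm by -0.69 and Hnrnpu by -0.68. Hnrnpc differed least, by -0.12, and Hnrnpf by -0.52, both with overlapping ranges. Hnrnpa1, a general repressor of exon inclusion, had 1.93 to 3.58 log2 RPKM with a median of 2.24 in adult libraries, against 3.56 to 4.36 with a median of 4.20 in P0 libraries. Its ranges met at adult library 1, which at 3.58 was just above the lowest P0 library at 3.56, and the next adult library was at 2.43. RefSeq lists pseudogenes close to Hnrnpa1, Hnrnpa1l2-ps and Hnrnpa1l2-ps2, so its level is uncertain.

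The largest adult difference belonged to Tra2b, an activator of exon inclusion that regulates exons in neurons. Tra2b had 3.35 to 3.90 log2 RPKM with a median of 3.47 in adult libraries, against 5.32 to 5.95 with a median of 5.64 in P0 libraries, a difference of -2.17 or 4.52-fold higher RPKM at P0. Tra2a differed by -0.29 with overlapping ranges. Over the 2 intervals on either side of birth, the paralogues thus had their large differences in different ones. Tra2a was at -1.13 and Tra2b at 0.23 for P0 against e14.5, and Tra2a at -0.29 and Tra2b at -2.17 for adult against P0. These 2 comparisons share the P0 libraries. Tra2b was also lower at e14.5 than at e12.5, where the read type changes, by -1.59 against -0.39 with overlapping ranges for Tra2a. The Sm genes were split in the same manner around birth, Snrpb at -1.02 and Snrpd1 at -0.06 for P0 against e14.5. For adult against P0, Snrpb was at -0.10 and Snrpd1 at -1.70. Snrpd1 encodes SmD1 and had 4.43 to 5.74 with a median of 4.99 in adult libraries, against 6.16 to 6.99 with a median of 6.68 in P0 libraries.

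Both U2AF genes were lower in adults. U2af1 had 3.04 to 3.77 log2 RPKM with a median of 3.18 in adult libraries, against 4.50 to 4.97 with a median of 4.76 in P0 libraries, and U2af2 differed by -0.45. Of the SR genes 4 of 10 were lower in adults, Srsf1 by -0.90, Srsf2 by -0.78, Srsf6 by -0.63 and Srsf10 by -0.57, with a class median of -0.54; 7 were lower when libraries were centred or quantile normalized. Srsf4 differed by -0.12, the smallest in the class. Srsf9 was the only one of the 42 genes with a positive difference: 5.05 to 5.49 log2 RPKM with a median of 5.29 in adult libraries, against 4.65 to 5.07 with a median of 4.88 in P0 libraries, the lowest adult library, number 4, lying below the highest P0 library. Without adult library 4 the ranges were apart, with Srsf9 higher in adults. Of the SF3 genes 3 of 5 were lower, Sf3a1 by -0.62, Sf3a3 by -0.53 and Sf3b2 by -0.37, and Sf3b1, the branch-site subunit mutated in blood cancers, differed least, by -0.12. The tri-snRNP had 3 of 7 lower, Prpf3 by -0.69, Prpf31 by -0.68 and Prpf4 by -0.23, all in its U4/U6 part. The U5 genes Prpf6, Prpf8 and Snrnp200 differed by -0.02, -0.15 and -0.21 with overlapping ranges. Snrpa, a U1 protein, was lower by -0.68, Snrnp70 differed by -0.50 and Prpf19 by -0.03, the last of these in 5.21 to 5.40 log2 RPKM in adult libraries, against 5.25 to 5.54 in P0 libraries.

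**Figure D3:**
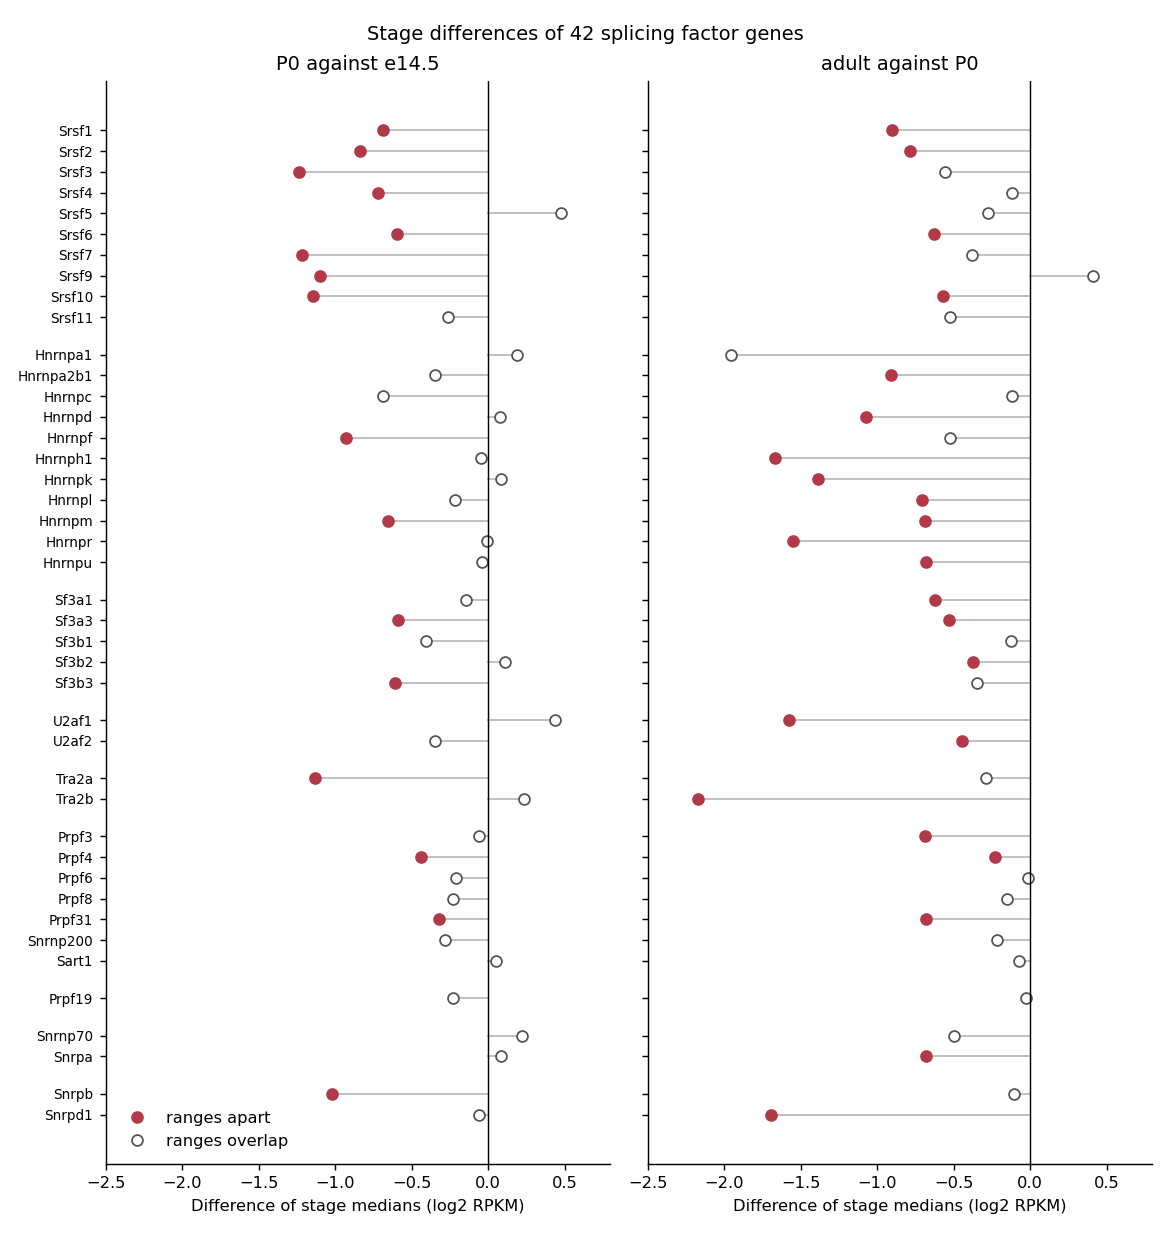
Difference of stage medians in log2 RPKM for each of the 42 genes, grouped by class, for P0 against e14.5 on the left and adult against P0 on the right; filled points mark genes whose libraries do not overlap between the stages and open points those that overlap. On the left 8 of 16 filled points are SR genes, on the right 8 of 23 are hnRNP genes, and both panels share the P0 libraries.

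Set side by side, 8 genes were lower in both comparisons: Srsf1, Srsf2, Srsf6, Srsf10, Hnrnpm, Sf3a3, Prpf4 and Prpf31. Another 8 were lower only at P0 against e14.5: Srsf3, Srsf4, Srsf7, Srsf9, Hnrnpf, Sf3b3, Tra2a and Snrpb. The 15 lower only in adults against P0 were Hnrnpa2b1, Hnrnpd, Hnrnph1, Hnrnpk, Hnrnpl, Hnrnpr, Hnrnpu, Sf3a1, Sf3b2, U2af1, U2af2, Tra2b, Prpf3, Snrpa and Snrpd1. In neither were Srsf5, Srsf11, Hnrnpa1, Hnrnpc, Sf3b1, Prpf6, Prpf8, Prpf19, Snrnp70, Snrnp200 and Sart1, 11 genes. The comparisons share the P0 libraries, and a gene called in 1 and not in the other is not thereby shown to differ between them.

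The earliest interval had the largest single differences, with the read type changing in it. Compared with e12.5, 26 of the 42 genes were lower at e14.5 and none was higher, against 22.3% of all genes lower and 23.1% higher, and the median difference was -0.58. U2af1 differed by -2.65, Hnrnpf by -2.38, Hnrnpk by -2.06 and Tra2b by -1.59. U2af1 had 4.07 to 4.55 log2 RPKM in e14.5 libraries, against 6.88 to 7.02 in e12.5 libraries. Hnrnpf had 2.86 to 3.39 in e14.5 libraries, against 5.50 to 5.78 in e12.5 libraries. In both genes the gap between the stages was several times the range within either. Tra2a differed by -0.39 and Srsf7 by -0.14, both with overlapping ranges.

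Adult library 1 was the highest adult library in 30 of the 42 genes, a count that was not made over all genes. Its median deviation from the adult medians was 0.20 log2 RPKM over the 42 genes and 0.0028 over all genes. On the RPKM scale it lay a median of 29.1% of the way from the other adults to P0, with quartiles of 24.6% and 38.9%. These values are over the 25 splicing factor genes at least 0.5 log2 higher at P0 than in adult libraries 2 to 6. Over the 257 genes of the whole table at least 3 log2 higher at P0 the same median was 39.5%. Without this library 26 of the 42 genes were lower in adults than at P0, against 30.0% of all genes, and the median difference was -0.60. All 23 called with it remained, which is certain under the range rule because leaving out a library cannot undo a call. Srsf3, Hnrnpa1 and Sf3b3 were added.

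**Figure D4:**
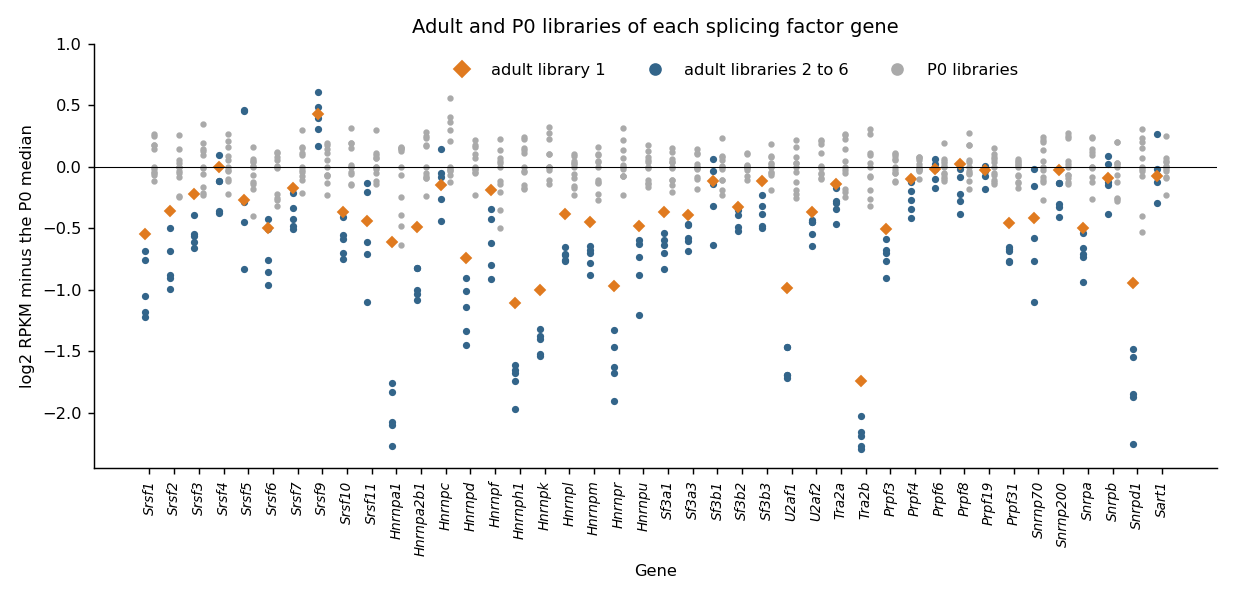
Level of each gene in adult libraries (library 1 as a diamond, libraries 2 to 6 as dots) and in P0 libraries (grey), in log2 RPKM relative to the P0 median of that gene. Adult library 1 is the highest adult library in 30 of the 42 genes. In the 23 called genes every adult library lies below all P0 libraries, which is the rule of the call.

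Cell type markers also differed between the stages, in both directions, and their part in the result was not tested. Summed RPKM of 10 genes of dividing cells was 67.6 to 104 in P0 libraries, against 257 to 406 in e14.5 libraries, with all 10 lower at P0. In adults it was 21.8 to 27.5 in libraries 2 to 6 and 60.5 in library 1, with 6 of 10 markers lower than at P0, and Mki67, Ccnb1, Cdk1 and Bub1 had adult medians below the filter. The 8 markers of radial glia, the progenitors of the cortex, summed to 778 to 1013 in P0 libraries, against 1266 to 1813 in e14.5 libraries. In adult libraries 2 to 6 they summed to 83.1 to 128 and in library 1 to 454. Of these 8 markers, 7 were lower at P0 than at e14.5 and none was higher. Compared with P0, 5 were lower in adults and 1 was higher. The 12 neuronal markers summed to 4856 to 6160 in adult libraries, against 3481 to 4014 in P0 libraries, with 8 higher and 3 lower in adults. The 10 markers of oligodendrocytes summed to 972 to 2322 in adult libraries, against 96.3 to 137 in P0 libraries, and adult library 1 was the lowest. The 7 astrocyte markers summed to 487 to 836 in adult libraries, against 173 to 256 in P0 libraries, and the 6 measured markers of microglia to 136 to 259, against 47.2 to 75.9. Endothelial markers, 5 in all, overlapped, at 53.4 to 77.3 in adult libraries and 57.4 to 85.3 in P0 libraries. The 4 measured blood markers summed to 2.24 to 4.07 in P0 libraries, against 62.6 to 528 in e14.5 libraries, and the embryonic globin genes among them (Hba-x, Hbb-bh1, Hbb-y) were below the filter by their P0 medians.

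The rest of the splicing machinery, 103 of 105 other genes listed, held genes called in both directions. At P0 28 of the 103 were lower than at e14.5 and 9 higher, with a median difference of -0.20, against 23.1% of all genes lower and 22.7% higher. In adults 47 were lower than at P0 and 9 higher, with a median of -0.50, against 25.2% of all genes lower and 29.3% higher. The shares over all genes are the background for the counts of each smaller group that follows. Among other Sm and LSm genes 3 of 11 were lower at P0, led by Snrpe at -2.47 and Snrpg at -1.78, and 1 was higher. Of the 7 kinases that phosphorylate SR proteins, none was lower at P0 than at e14.5 and 2 were higher, Srpk2 by 0.41 and Clk3 by 0.28. In adults 4 of the 7 kinases were lower, led by Clk2 at -0.93 and Prpf4b at -0.70, and 1 was higher. All 5 genes of the exon junction complex, which marks spliced messenger RNA, were lower in adults, led by Magoh at -1.47 and Magohb at -1.18. At P0 none of the 5 was lower than at e14.5 and 1 was higher. The other hnRNP genes had 8 of 15 lower at P0, led by Hnrnpa0 at -1.35 and Hnrnpa3 at -1.24, and 1 higher. In adults 8 of the 15 were lower, led by Hnrnpab at -2.24 and Rbmx at -1.88, and 3 were higher. Snrpc, another U1 protein gene, was lower in adults by -1.95. The minor spliceosome, which removes a rare class of introns, had 1 of 8 lower and 2 higher in each comparison. Zrsr1 was higher in both, by 1.25 at P0 and 1.20 in adults.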

How the data were processed

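RNA values came as 1 table of log2 RPKM, deposited by the authors, with 12158 genes and 44 libraries. Per the labels' protocols, stranded libraries of polyadenylated RNA were read as 50 bp single ends, or as 100 bp paired ends at e12.5. Per the submitters' processing notes, STAR 2.4.2a and the mm9 build were among the tools used; the counter, annotation, gene filter and further normalization were not given in the sources used here. From there, genes with a mean of -2 log2 RPKM or less were left out (56), stages were read from the column names, and stages were compared by medians and by whether their ranges overlapped (Python 3.11.15, pandas 2.3.3, numpy 2.4.6). The comparison code was tested on simulated data. The planned limma fit of Het against WT was not run, because no column could be matched to a genotype: column names carry a digit that no label explains, and reading a genotype from Chd8 would define groups by an outcome. The members and lists, and the genes named (the called genes with the largest differences and the least different gene of each class), were chosen with earlier results of these data known. Alternatives were median centring, quantile normalization, a pseudocount of 1 RPKM, no filter, each library left out, a 2-fold rule and, chosen after seeing the data, the e17.5 libraries split by the kind of column name. Promoter sequences were RefSeq's on GRCm38.p6. Some values that were computed are not reported here.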

Additional observations from a re-analysis of the deposited data

Results flagged for a closer look

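In 12 of 172 sets of 6 to 10 libraries (a gene, or the summed share, in 1 stage), the highest or lowest library stood farther from its neighbour than Dixon's 95% limit allows; chance gives about 8.6. P0, with 11 libraries, was not searched. Of the 12, 8 were high values of e17.5 library 2: Srsf2 at 7.41 log2 RPKM with the next library at 6.92, Srsf3 at 6.26 with the next at 5.85, Srsf5 at 6.76 with the next at 5.87, Srsf6 at 6.43 with the next at 5.93, Srsf7 at 7.26 with the next at 6.40, Hnrnph1 at 9.20 with the next at 8.73, Sf3b1 at 6.63 with the next at 6.12, and the summed share of the 42 genes at 1.28% with the next at 1.06%. Another 3 were high values of adult library 1: Hnrnpa1 at 3.58 with the next at 2.43, Hnrnpl at 6.68 with the next at 6.41, and U2af1 at 3.77 with the next at 3.30. The last was Snrpb in e14.5 library 7, at 7.79 with the next at 7.42.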

How the results depend on the processing

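No paired analysis was possible because the labels list 1 sample a group and no column could be matched to a genotype, and the planned fit of Het against WT was not run for the same reason. Counts of splicing factor genes called lower stayed within 1.5 times of those reported under median centring and quantile normalization in all 5 stage comparisons. The counts over all genes under these scalings are not given here, so the changes in count have no background. A pseudocount of 1 RPKM and the absence of a filter could not change these counts. The pseudocount keeps the order of the libraries, and all 42 genes passed the filter. Under quantile normalization 1 gene was higher at P0 than at e14.5 and 0 at P0 than at e17.5, and the median at e14.5 against e12.5 was -0.40. Under the 2-fold rule 6 genes were lower at P0 against e14.5, 7 in adults against P0, 6 at e14.5 against e12.5, 1 at e17.5 against e14.5, and 0 lower and 0 higher at P0 against e17.5. Over all genes that rule left 956 lower and 1334 higher, 1597 lower and 1962 higher, 776 lower and 1108 higher, 406 lower and 568 higher, and 50 lower and 72 higher, in the same order. Leaving out 1 library at a time gave 16 to 18 genes lower at P0 against e14.5 and 23 to 26 in adults against P0 with 0 to 1 higher. It gave 26 to 33 at e14.5 against e12.5, 9 to 14 at e17.5 against e14.5 and 4 to 5 at P0 against e17.5. Over all genes the counts lower were 2796 to 3046, 3063 to 3635, 2711 to 2885, 1465 to 1752 and 760 to 914, in the same order. With every library they were 2792, 3052, 2703, 1464 and 760. Because leaving out a library cannot undo a call, these counts could only stay or rise, and they are no check on the genes already called. The median at P0 against e17.5 lay near 0 and changed sign: it was 0.01 as reported, -0.0055 to 0.031 with 1 library left out, and -0.06 under quantile normalization. With the e17.5 libraries named S1 to S5 alone, 17 genes were lower at e17.5 than at e14.5; with those named S158 to S163 alone, 1343 of all genes were lower and 1333 higher at P0 than at e17.5, and the median of the 42 genes was -0.04. Using only part of the e17.5 libraries cannot undo a call either, so these counts of called genes could only stay or rise. The count over all genes with S1 to S5 alone is not given here. Beyond that the cause was not tested, apart from the 2-fold rule, which keeps fewer genes by construction. The number of libraries a stage, 6 to 11, limits the precision.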

Other observations

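The column names carry a digit, 1 or 2, that no label explains, and the libraries are given here by digit with no genotype attached and no test. Medians of the 42 genes were lower with digit 2 than with digit 1 in 29 at e12.5 (4 and 4 libraries), 32 at e14.5 (6 and 3), 29 at e17.5 (7 and 3), 39 at P0 (6 and 5) and 30 in adults (3 and 3). Over all genes the shares with a lower median were 54.2%, 46.5%, 47.9%, 49.7% and 49.3%. The median difference of the 42 genes, digit 2 minus digit 1, was -0.03, -0.09, -0.13, -0.13 and -0.12 log2 RPKM over the same stages.

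Summed over the 42 genes, the share of RPKM at P0 ran between 0.813% and 0.984% with digit 2 and between 0.898% and 0.954% with digit 1. In adults it ran between 0.410% and 0.460% with digit 2 and between 0.511% and 0.597% with digit 1. Adult library 1 carries digit 1. The digits were also apart at e17.5, at 0.827% to 1.02% with digit 2 and 1.05% to 1.28% with digit 1. The library at 1.28% is e17.5 library 2. At e12.5 and e14.5 the digits overlapped, as at P0. Chd8 had medians of 4.13 log2 RPKM at e12.5, 3.98 at e14.5, 3.93 at e17.5, 3.83 at P0 and 3.18 in adults with digit 2, against 4.70, 4.19, 4.47, 4.44 and 4.10 with digit 1.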
